A study of Homo sapiens with 5 samples.

Results

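The Smad3 ChIP-seq peaks of 2 libraries of BT549, a human cell line from a basal-like breast tumour, were set side by side. The first library came from cells that stably carried constitutively active Smad3 (caSmad3) from a lentiviral vector and were transfected with polyI:C, a synthetic double-stranded RNA, without TGF-beta. The second came from cells with the HA control vector that were mock transfected and given TGF-beta at 1 ng/ml for 1.5 h. Of the 19372 peaks in the 5 deposited peak lists, 6041 were Smad3 peaks of caSmad3 cells and 353 were Smad3 peaks of the mock TGF-beta cells. A peak counted as shared when it had at least 1 base in common with a peak of the other list. The 3 other lists, used only to describe these peaks, were Smad3 after polyI:C and the same TGF-beta treatment in HA cells, IRF3 in caSmad3 cells given polyI:C, and IRF3 in HA cells given polyI:C. Each group held 1 library, so there was no replicate error and no test between conditions. The 2 Smad3 libraries differed in the vector, in the transfected RNA and in TGF-beta at once, so these cannot be told apart, and a Smad3 library of HA cells without TGF-beta was not analysed here. Whether a site of the mock TGF-beta list depended on the ligand was therefore not tested.

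Smad3 is the transcription factor that carries the TGF-beta signal to the genome. The activated receptor phosphorylates it at its tail, and it then joins Smad4, enters the nucleus and binds short CAGAC motifs, usually next to partner factors such as AP-1 or TEAD proteins. Its target genes include the ID genes, which encode inhibitors of differentiation, plasminogen system genes and matrix genes, and in breast cancer cells it is known for its part in the epithelial to mesenchymal transition. Constitutively active Smad3 acts without the receptor's signal. An antibody to Smad3 does not tell the vector's protein from the cell's own.

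The base sequence below is the promoter of ID1, shown because it was the one promoter of a TGF-beta target gene, among those in the RefSeq table, whose 250 bases upstream of the start site lay under a peak of both libraries. It runs 5′ to 3′ on the plus strand of GRCh38.p14 (chr20:31605039-31605288, from RefSeq), and the capitals mark the 109 bases under the mock TGF-beta peak. The whole window lay under a caSmad3 peak of 641 bases.
ID1: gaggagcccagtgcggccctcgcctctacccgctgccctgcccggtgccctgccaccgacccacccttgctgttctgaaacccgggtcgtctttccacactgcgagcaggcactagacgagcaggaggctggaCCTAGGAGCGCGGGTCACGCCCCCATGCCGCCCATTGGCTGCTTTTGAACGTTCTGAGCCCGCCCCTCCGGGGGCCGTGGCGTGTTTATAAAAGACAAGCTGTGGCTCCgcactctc
The mature microRNA hsa-miR-21-5p, from RefSeq, is shown because the widest caSmad3 peak of the whole list lay next to its gene. It is read from chr17:59841273-59841294 on the plus strand, and the capitals mark the seed, bases 2 to 8.
hsa-miR-21-5p: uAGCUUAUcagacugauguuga

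Nearly all Smad3 sites of the mock TGF-beta cells were also in the caSmad3 list, and they made up a small part of it. Of the caSmad3 peaks, 309 of 6041 overlapped a mock TGF-beta peak (5.12%, 95% exact Clopper-Pearson interval 4.57 to 5.70). Of the mock TGF-beta peaks, 324 of 353 overlapped a caSmad3 peak (91.8%, 88.4 to 94.4), and 29 did not. The match was close to 1 to 1, since 321 mock TGF-beta peaks met 1 caSmad3 peak and 3 met 2, while 291 caSmad3 peaks met 1 mock TGF-beta peak and 18 met 2. When peaks of a list within 1 kb of each other were joined to 1 site, 269 of 5059 caSmad3 sites and 280 of 307 mock TGF-beta sites were shared. The lists hold no read counts, so depth is unknown, the unequal length of the lists says nothing of how strongly Smad3 bound, and the intervals cover counting error only.

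Part of the overlap came from sites that IRF3 chromatin gave as well. Peaks at genes for rRNA, snRNA, tRNA, snoRNA and other small RNAs, or in the rRNA gene region of chromosome 21, made up 140 of 6041 caSmad3 peaks (2.32%) and 82 of 353 mock TGF-beta peaks (23.2%). All 82 were in the caSmad3 list and in both IRF3 lists, and 80 were in the polyI:C Smad3 list. They were wide, with a median of 467.5 bases in the mock TGF-beta list, and 37 of them lay in the rRNA gene region. These genes have many near-identical copies, so the placement of reads among them is uncertain. Outside these genes, 242 of 271 mock TGF-beta peaks were shared (89.3%, 85.0 to 92.7). Of the 207 that were also in no IRF3 list, 180 were shared (87.0%, 81.6 to 91.2).

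The presence of a mock TGF-beta peak in the caSmad3 list went with its presence elsewhere. Of the 324 shared peaks, 244 were also in the Smad3 list of polyI:C-transfected HA cells with TGF-beta (75.3%, 70.2 to 79.9), and of the 29 not shared, 3 were (10.3%, 2.19 to 27.4). Without the small RNA genes the share of the shared peaks was 164 of 242 (67.8%, 61.5 to 73.6). Read the other way, 244 of the 247 mock TGF-beta peaks that were also listed after polyI:C were in the caSmad3 list (98.8%), and 80 of the 106 that were not listed after polyI:C were in it (75.5%, 66.2 to 83.3). The largest classes were 116 peaks in all 5 lists, 115 in the 3 Smad3 lists alone and 65 in the caSmad3 and mock TGF-beta lists alone. Another 24 peaks were in the mock TGF-beta list alone. An IRF3 peak of either cell type overlapped 144 of the shared peaks (44.4%) and 2 of those not shared (6.90%, 0.846 to 22.8). Without the small RNA genes it overlapped 62 of 242 shared peaks (25.6%, 20.2 to 31.6).

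**Figure D1:**
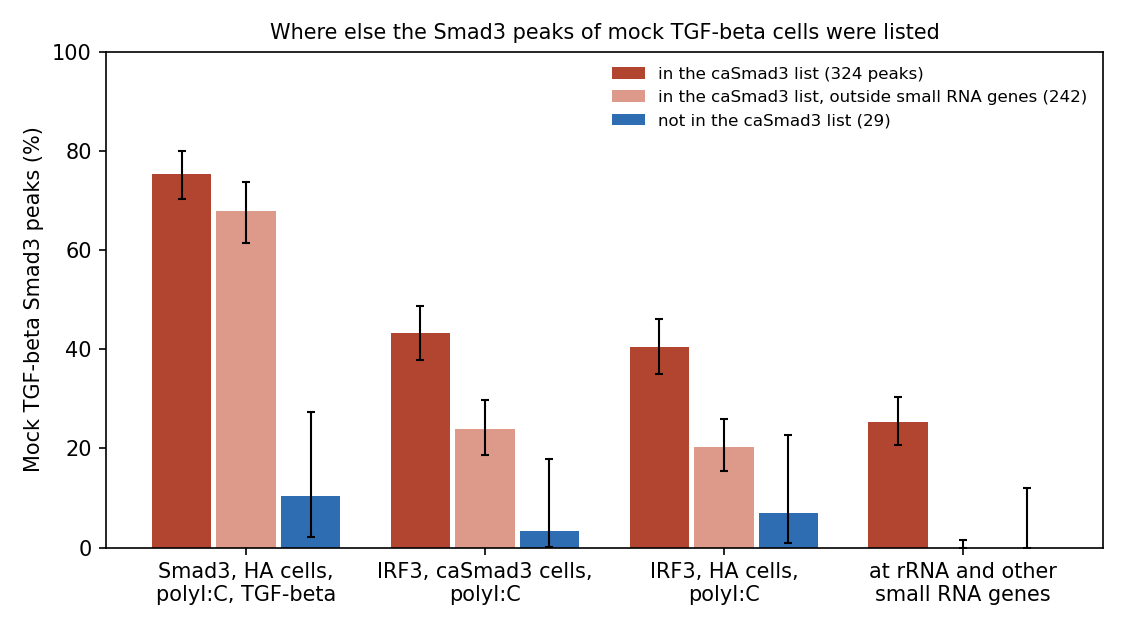
Percent of Smad3 peaks of mock TGF-beta cells that were also in each of the 3 other peak lists, or that lay at small RNA genes, for peaks in the caSmad3 list, the same without small RNA genes, and peaks not in the caSmad3 list. Error bars are 95% exact intervals for counting error; the polyI:C Smad3 list held 75.3% of the 324 shared peaks and 10.3% of the 29 others.

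Shared peaks were also wider. A wider peak has more bases in which to meet another, so part of this follows from the rule of 1 common base. The caSmad3 peaks that overlapped a mock TGF-beta peak had a median width of 469 bases (444 to 504), against 172 (169 to 175) for the other 5732. Shared mock TGF-beta peaks had a median width of 173 bases (159 to 195), against 114 (101 to 130) for those not shared, none of which was wider than 203. With centres within 100 bases as the rule, the medians were 174 bases shared and 137 not shared. Outside small RNA genes the medians of shared peaks were 410 bases in the caSmad3 list and 146.5 bases in the mock TGF-beta list. Of the mock TGF-beta peaks at the minimum width of 99 bases, 27 of 35 were shared (77.1%, 59.9 to 89.6). The share was 104 of 121 at 100 to 149 bases (86.0%), 54 of 57 at 150 to 199 (94.7%), 50 of 51 at 200 to 299 (98.0%) and 89 of 89 at 300 or more. In the caSmad3 list, 17.9% of peaks of 300 or more bases had a mock TGF-beta counterpart (13.2% outside small RNA genes), and 1.00% of those of 99 bases had one. Among the 100 widest caSmad3 peaks, 66 had one, and among the 100 widest outside small RNA genes, 34.

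Within a pair of overlapping peaks the caSmad3 peak was usually the wider. Over 327 pairs it was wider in 306, narrower in 19 and equal in 2, with a median ratio of caSmad3 to mock TGF-beta width of 2.04. In the 245 pairs outside small RNA genes the median widths were 422 bases in caSmad3 cells and 146 bases in mock TGF-beta cells, and the median ratio was 2.37. The centres lay a median of 47.5 bases apart, and in 270 pairs the caSmad3 peak covered the mock TGF-beta peak from end to end. The lists give no depth or score beside which these widths could be set.

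**Figure D2:**
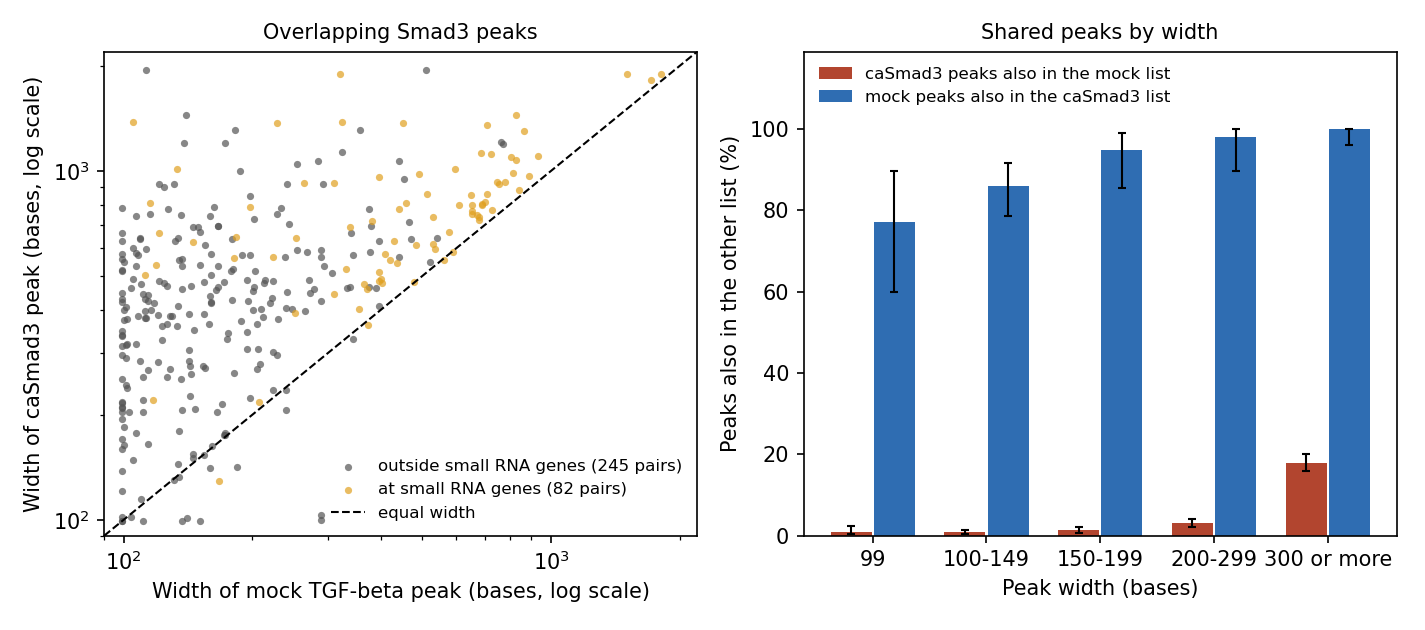
Left, width of the caSmad3 peak against width of the mock TGF-beta peak in each of the 327 overlapping pairs, in bases on log axes, with the line of equal width; 306 pairs lie above the line. Right, percent of caSmad3 peaks and of mock TGF-beta peaks in each width class that were also in the other list, with 95% exact intervals, from 0.832% to 17.9% and from 77.1% to 100%.

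A gene was counted when a peak lay inside it or within 10 kb of it. Among 20037 protein-coding genes, 3986 had a caSmad3 peak (19.9%), 184 had a mock TGF-beta peak (0.918%) and 175 had both (0.873%). With 10 kb from a gene end alone, the shares were 16.8% and 0.589%. Of the 184 genes with a mock TGF-beta peak, 175 had a caSmad3 peak (95.1%, 90.9 to 97.7), though not always the same peak. The 9 without one were FADS1 and its neighbour FEN1, FUBP1, KIF25, PTPRC, SHLD1, SULF2, UTS2 and WARS2.

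Among TGF-beta target genes the mock TGF-beta list held ID1, ID3 and urokinase, and every one of these peaks was in the caSmad3 list. Of all mock TGF-beta peaks 91.8% were in that list, so these few peaks do not set the target genes apart. Of 40 target genes, 23 had a caSmad3 peak (57.5%, against 19.9% of all genes and 55.0% of housekeeping genes). A mock TGF-beta peak was at 3, ID1, ID3 and PLAU (7.5%, against 0.918% of all genes and 5% of housekeeping genes). The IRF3 lists of caSmad3 and HA cells held a peak at 24 and 15 of the 40, and at 19 and 15 of the 20 housekeeping genes. ID2 had 2 caSmad3 peaks, the widest of 211 bases, and no mock TGF-beta peak. ID1 and ID3 encode helix-loop-helix proteins that hold other factors off DNA and block differentiation. ID1 had 7 caSmad3 peaks, of 117, 466, 641, 184, 397, 317 and 465 bases, and 3 mock TGF-beta peaks, of 376, 109 and 202 bases. The centres of the 3 lay 997 and 63 bases upstream and 2123 bases downstream of the start site, each under a caSmad3 peak. The 2 on the upstream side were also in both IRF3 lists, and the downstream one (chr20:31607312-31607513) was in neither. In the polyI:C Smad3 list were the downstream peak and the one 63 bases upstream, but not the one 997 bases upstream. ID3 had 4 caSmad3 peaks, the widest of 477 bases (chr1:23556686-23557162), and 1 mock TGF-beta peak of 213 bases within it (chr1:23556834-23557046). That peak lay 2561 bases downstream of the ID3 start site and was also in the polyI:C Smad3 list. PLAU encodes urokinase, the protease that activates plasminogen. It had a caSmad3 peak of 422 bases and a mock TGF-beta peak of 99 bases (chr10:73906776-73906874), which lay 3785 bases upstream of its start site.

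From the ligand and latent complex list and the list of mesenchymal transition and matrix genes, the mock TGF-beta list held LTBP2, COL1A1 and VIM. Each of their peaks was again in the caSmad3 list, as were 91.8% of all mock TGF-beta peaks. LTBP2, a matrix protein of the latent TGF-beta binding protein family, was the one of 22 genes of the ligand and latent complex list with a mock TGF-beta peak. That share of 4.55%, against 0.918% of all genes, rests on 1 gene, and whether LTBP2 takes part in a latent complex was not tested. In the same list 6 genes had a caSmad3 peak (27.3%, against 19.9%). LTBP2 had 6 caSmad3 peaks, of 640, 154, 353, 785, 575 and 100 bases, and 3 mock TGF-beta peaks, of 109, 99 and 344 bases. The 344-base peak (chr14:74619732-74620075) lay 7495 bases upstream of the gene, under a caSmad3 peak of 575 bases, and none of the 3 was in an IRF3 list. Of 33 genes of the epithelial to mesenchymal transition and matrix, 10 had a caSmad3 peak (30.3%, against 19.9% of all genes). With 10 kb from a gene end alone, 7 did, against 16.8% of all genes. The IRF3 list of caSmad3 cells held a peak at 11 of the 33. A mock TGF-beta peak was at 2 of them, COL1A1 and VIM (6.06%, against 0.918% of all genes). The site near COL1A1, which encodes a chain of type I collagen, had a caSmad3 peak of 948 bases and a mock TGF-beta peak of 452 bases (chr17:50178272-50178723). That mock TGF-beta peak lay 5378 bases below COL1A1 (toward lower coordinates) and 2344 bases above SGCA, the nearest gene, so it counts for both. VIM, which encodes the mesenchymal filament protein vimentin, had a caSmad3 peak of 521 bases and a mock TGF-beta peak of 99 bases inside the gene (chr10:17228612-17228710), and this mock TGF-beta peak was in none of the polyI:C Smad3 and IRF3 lists.

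Hippo pathway genes appeared in both lists as well. Of 20 Hippo genes and TEAD targets, 12 had a caSmad3 peak (60%, against 19.9% of all genes). A mock TGF-beta peak was at 2 of them (10%, against 0.918%), NUAK2, a kinase gene, and STK3, which encodes a Hippo pathway kinase. With 10 kb from a gene end alone, the counts were 7 and 1, against 11 and 1 of 20 housekeeping genes. STK3 spans 598636 bases, and both of its mock TGF-beta peaks lay inside it. NUAK2 had a caSmad3 peak of 581 bases, which held the mock TGF-beta peak of 107 bases. In STK3 the caSmad3 peaks of 142 and 487 bases overlapped mock TGF-beta peaks of 184 and 271 bases, and the first of these was one of the 19 pairs in which the caSmad3 peak was narrower. Among 20 housekeeping genes 11 had a caSmad3 peak (55.0%) and 1 had a mock TGF-beta peak, POLR2A, the gene of the largest RNA polymerase II subunit, with 597 and 113 bases at the overlapping site. The housekeeping share in the caSmad3 list lay above the 19.9% of all genes, as did the 57.5% of the TGF-beta targets.

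The widest peak of the caSmad3 list, 1952 bases (chr17:59842579-59844530), lay next to MIR21, the gene of a microRNA known as raised in many cancers and by TGF-beta signalling. It covered 2 mock TGF-beta peaks, of 509 bases (chr17:59843373-59843881) and 113 bases (chr17:59844130-59844242). They began 2036 and 2793 bases past the MIR21 gene, and the wider one lay 1118 bases above VMP1, which encodes an autophagy protein. The 509-base peak was also in the polyI:C Smad3 list and in the IRF3 list of caSmad3 cells, and the 113-base peak was in neither.

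Some list members had their mock TGF-beta peak farther away, at 10 to 100 kb with no nearer protein-coding gene, and were named after the values were seen. The peak 22032 bases upstream of TGFBI, which encodes a matrix protein induced by TGF-beta, was 603 bases wide in caSmad3 cells and 105 bases in mock TGF-beta cells. PMEPA1, a membrane protein that restrains Smad signalling, had one 37244 bases upstream of 574 bases in caSmad3 cells and 108 bases in mock TGF-beta cells. The site 64853 bases upstream of the AP-1 gene JUN was 669 bases wide in caSmad3 cells and 151 bases in mock TGF-beta cells. The site 66250 bases below MYC was 567 and 239 bases wide in caSmad3 and mock TGF-beta cells. All 4 were in the polyI:C Smad3 list and in no IRF3 list. The site 28231 bases downstream of AMOTL2, a Hippo pathway gene, was 400 bases wide in caSmad3 cells and 116 bases in mock TGF-beta cells, and was in none of the 3 other lists. The same rule gave GUSB, a housekeeping gene, with a 99-base mock TGF-beta peak 32732 bases upstream. That peak was not in the caSmad3 list but was in the IRF3 list of HA cells. The share of all genes with such a distal peak was not computed. Whether these sites act on the named genes was not tested.

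The widest shared sites outside small RNA genes, by mock TGF-beta width, mixed such sites with ones that IRF3 chromatin also gave. Sites 6953 bases from EAPP (1192 bases in caSmad3 cells and 773 in mock TGF-beta cells) and 4683 bases from SNX6 (1213 and 765) were in all 5 lists. So were sites inside TEX14 (640 and 471) and FRMD4A (716 and 464). Also in all 5 was a chromosome 21 site 371263 bases from a protein-coding gene and 560 bases from MIR10396A (547 and 522). The centres near EAPP and SNX6 and in TEX14 lay 163, 198 and 57 bases from the end of a gene that is not protein-coding. The small RNA class was set by annotated gene type and took no pseudogenes, so copies of such genes may remain. The site near VMP1 was in the IRF3 list of caSmad3 cells. Another 3, near SGCA and COL1A1, near SNX5 (1069 and 441) and near HRH1 (568 and 441), were in the 3 Smad3 lists and in no IRF3 list. The next widest in no IRF3 list lay near LMO4, CLU, DNAH17, ANKRD30A and LTBP2.

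The 29 mock TGF-beta peaks without a caSmad3 counterpart were narrow and scattered, and 5 of them missed a caSmad3 peak by less than 500 bases. Those 5 were in RIN2, an endocytic GTPase regulator (82 bases away), 253156 bases from PIK3R1 (92), in the immunoglobulin heavy chain region of chromosome 14 (112), 226184 bases from TRIB1 (205) and 476610 bases from CAMK1G (393). The next gaps were 3091 and 17181 bases, and the median was 161362. A total of 16 peaks lay more than 100 kb from any caSmad3 peak, and the largest gap was 3329341 bases, for the peak nearest to TPD52L1. On the other side of the rule, the smallest overlaps were 6 bases near ACTG1, 27 bases near CLTC and 43 bases for a peak 111713 bases from ELAVL2.

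The widest peak not shared was 203 bases (chr3:13507826-13508028), 1410 bases above HDAC11, a histone deacetylase gene, and it was in none of the other lists. It was followed by 186 bases in WARS2, the mitochondrial tryptophanyl-tRNA synthetase gene (chr1:119080694-119080879), and 168 bases in UTS2, the urotensin 2 gene (chr1:7894606-7894773). Others inside a gene were in IGFBP7 (136 bases), a secreted insulin-like growth factor binding protein, SHLD1 (132), a DNA repair factor, FUBP1 (128), BABAM2 (123), CACNA2D3 (123), a calcium channel subunit, PTPRC (114), KIF25 (114) and FADS1 (99), a fatty acid desaturase. SULF2, a heparan sulfate endosulfatase, had a 99-base peak 5554 bases above the gene. PTPRC encodes the leukocyte antigen CD45, and the peak there was the one mock TGF-beta peak at 15 leukocyte marker genes. The peaks nearest to SLC4A3 (157), FRG1 (138), CXADR (130), MEDAG (112), TPD52L1 (105), ZNF267 (101), INTU (101), POMC, THBS2, GUSB and RAD23B (99 each) lay more than 10 kb from those genes, as did a second peak of the immunoglobulin region. Of the 29, those in SHLD1, near PIK3R1 and at the immunoglobulin region 112 bases from a caSmad3 peak were in the polyI:C Smad3 list. The peak in FUBP1 was in both IRF3 lists and that near GUSB in the IRF3 list of HA cells. No member of the TGF-beta ligand, receptor, feedback, target, matrix, AP-1 or Hippo lists lay within 10 kb of any of the 29. Few members of these lists had any mock TGF-beta peak within 10 kb, namely ID1, ID3, PLAU, LTBP2, COL1A1, VIM, NUAK2 and STK3. Of all mock TGF-beta peaks 91.8% were shared, and of the 29 only 11 lay inside a protein-coding gene and 2 within 10 kb outside one. The absence therefore says little about these lists.

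By place, 11 of the 29 lay inside a protein-coding gene, 2 within 10 kb outside one and 16 farther away. The centre was within 1 kb of a protein-coding gene end for 1 of the 29 (3.45%, 0.0873 to 17.8) and for 45 of the 324 shared (13.9%, 10.3 to 18.1), intervals that overlap. Asking for 50% of both peaks turned this order, with 34 of 203 not shared (16.7%) and 12 of 150 shared (8%). By chromosome, all 36 mock TGF-beta peaks of chromosome 17 and all 11 of chromosome 10 were shared, against 2 of 5 on chromosome 4, 6 of 9 on chromosome 6 and 9 of 12 on chromosome 2. Of the 36 on chromosome 17, 16 lay outside small RNA genes. The rest were at small RNA genes, a class in which every mock TGF-beta peak was shared. Of the 13 mock TGF-beta peaks at immunoglobulin and T cell receptor loci, 11 were shared, and so were all 6 at histone genes. Chromosomes 3, 8, 9 and 20 together held 30.2% of caSmad3 peaks and 31.7% of mock TGF-beta peaks. Outside small RNA genes they held 30.8% (29.6 to 32.0) and 40.6% (34.7 to 46.7).

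The 5732 caSmad3 peaks without a mock TGF-beta counterpart were more often at ends of protein-coding genes. Their centres were within 1 kb of a protein-coding gene end for 1958 (34.2%, 32.9 to 35.4), and 54.6% lay inside a protein-coding gene and 29.2% farther than 10 kb from one. Among the 309 caSmad3 peaks that were shared, 13.9% (10.3 to 18.3) were within 1 kb of a protein-coding gene end and 50.8% were farther than 10 kb from a protein-coding gene (42.1% of the 233 outside small RNA genes). With ends of non-coding genes counted too, the shares within 1 kb were 42.6% of those not shared and 43.4% of those shared, and outside small RNA genes 42.0% and 30.5%. The IRF3 list of caSmad3 cells overlapped 31.0% of the caSmad3 peaks not shared and 43.4% of those shared, and the polyI:C Smad3 list 7.17% and 77.3%. Outside small RNA genes the order turned for IRF3, with 30.4% (29.2 to 31.7) of those not shared and 24.9% (19.5 to 31.0) of those shared, intervals that overlap, and the polyI:C Smad3 list held 395 of 5668 and 163 of 233. Of the 10 widest not shared, 6 were at histone genes, with 1408 bases at H3C15, 1310 at H1-2, 1184 at H2AC19, 1051 at H4C11, 962 at H4C12 and 906 at H3C14. All 6 were also in the polyI:C Smad3 list and in both IRF3 lists. Histone genes are repeated, and reads may be placed among copies. The other 4 were in no IRF3 list, namely 1022 bases at a site 428291 bases from SPRY1, 941 in CDCP1, 907 at 84 bases below PDCD1LG2, which encodes the immune checkpoint ligand PD-L2, and 900 in TNRC6A. The one in CDCP1 was in the polyI:C Smad3 list.

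CaSmad3 peaks without a mock TGF-beta peak within 10 kb lay at some genes of each TGF-beta list. Of the 22 genes of the ligand and latent complex list, 6 had a caSmad3 peak (27.3%, against 19.9% of all genes). With 10 kb from a gene end alone, 4 did, against 16.8% of all genes. Of the 6, those without a mock TGF-beta peak were TGFB2, LTBP1, LTBP3, THBS1 and ITGB6. ITGB6 encodes an integrin subunit that activates latent TGF-beta, and its widest caSmad3 peak was 491 bases. Of 17 receptor and Smad genes, 3 had a caSmad3 peak (17.6%, near the 19.9% of all genes), namely TGFBR2 (182 bases), ACVR1 (200) and SMAD3 itself (99), and none had a mock TGF-beta peak. With 10 kb from a gene end alone, 0 of the 17 had a caSmad3 peak. Of 16 feedback regulators, 7 had a caSmad3 peak (43.8%, against 19.9% of all genes) and none had a mock TGF-beta peak. The 7 included SMAD7 (2 peaks, widest 176 bases), SKI (206), SMURF2 (181) and PMEPA1 (4, widest 397). The IRF3 list of caSmad3 cells held a peak at 12 of the 16. Among targets, CCN1 had 9 caSmad3 peaks (widest 733 bases), CCN2 3 (483), GADD45B 4 (552), JUNB 4 (520), ADAM12 3 (530) and TGFBI 2 (490), and none had a mock TGF-beta peak within 10 kb. The IRF3 lists of caSmad3 and HA cells also held 6 and 7 peaks at CCN1, 4 and 6 at JUNB and 1 and 1 at GADD45B. At CCN2 they held 6 (widest 1203 bases) and 0, at ADAM12 1 and 0, and at TGFBI none. The polyI:C Smad3 list of HA cells held 2 peaks at CCN1, 1 each at GADD45B, JUNB and TGFBI, and none at CCN2 or ADAM12. It also held 2 at ITGB6 and 1 at PMEPA1. Matrix genes with caSmad3 peaks and no mock TGF-beta peak included COL7A1 (widest 642) and LOXL2 (8 peaks, widest 431). LOXL2 also had 1 peak in the polyI:C Smad3 list and 1 in each IRF3 list.

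Of 26 AP-1 and immediate early genes, 15 had a caSmad3 peak (57.7%, against 19.9% of all genes and 55.0% of housekeeping genes) and 0 a mock TGF-beta peak (0.918% of all genes), with 5 caSmad3 peaks at JUN (widest 747 bases), 6 at FOSL1 (232) and 4 at IER2 (485). The IRF3 lists of caSmad3 and HA cells also held 8 and 7 peaks at JUN, 2 and 1 at FOSL1 and 5 and 4 at IER2. Of the Hippo and TEAD target genes, AXL (4 peaks, widest 769), STK4 (642) and WWTR1 (6, widest 425) had caSmad3 peaks and no mock TGF-beta peak. WWTR1 encodes the coactivator TAZ. The same IRF3 lists held 4 and 0 peaks at AXL, 2 and 2 at STK4 and 1 and 3 at WWTR1. The polyI:C Smad3 list held 1 peak at AXL and 2 at WWTR1. Of 30 IRF3 and interferon genes, 1 had a caSmad3 peak and 0 a mock TGF-beta peak. Among 18 epithelial markers 4 had a caSmad3 peak (22.2%, near the 19.9% of all genes) and 0 a mock TGF-beta peak, and among 15 leukocyte markers 1 (CSF1R) and 1 (PTPRC). Expression was not measured, so the identity of the cells could not be checked against these markers.

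**Figure D3:**
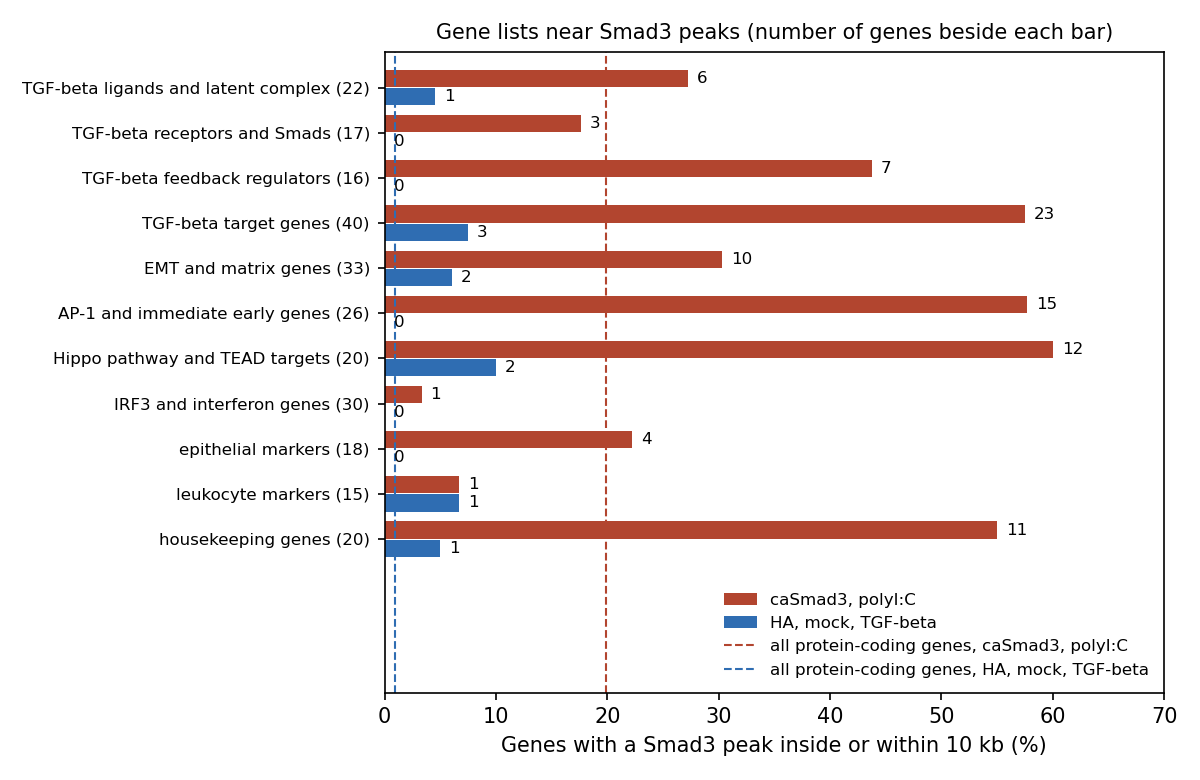
Percent of the genes of each list with a Smad3 peak inside or within 10 kb, in caSmad3 polyI:C cells and in mock TGF-beta HA cells, with the number of genes beside each bar and the size of the list in brackets. Dashed lines are the shares of all protein-coding genes, 19.9% and 0.918%; 23 and 3 of the 40 TGF-beta target genes counted.

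Promoters were searched for short motifs because the table of promoters is where sequence at a peak could be read. The whole 250-base window was searched, so the counts include motifs outside the peaks and do not describe the sequence under them. Of 22199 protein-coding promoters, taken as the 250 bases before the start site, 1431 had bases under a caSmad3 peak and 20 of these were also under a mock TGF-beta peak. On either strand, the Smad motif CAGAC was in 6 of the 20 (30%), in 35.4% of the 1431 and in 37.2% of all promoters. The AP-1 motif TGANTCA was in 5.00%, 4.89% and 5.36%, the TEAD motif GGAATG in 15.0%, 9.08% and 10.5%, and the GC-rich Smad motif GGCGCC in 5.00%, 23.5% and 20.7%. The intervals of the 20 are wide, 11.9 to 54.3 for CAGAC and 0.127 to 24.9 for GGCGCC. They also treat the 20 as separate, though the windows of ITGB3BP and EFCAB7 overlapped under the same mock TGF-beta peak. Those of ZBTB4 and POLR2A did so too. The ID1 window printed above held none of these 4 motifs. A match describes these letters and is not a binding site.

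Of the 20 promoters, GTF2H4, which encodes a subunit of the transcription factor TFIIH, NPLOC4, a cofactor of the p97 segregase, and NAIF1 were the ones in no IRF3 list, and their windows are printed for that reason. They run 5′ to 3′ in the sense of the gene (GRCh38.p14, RefSeq), with capitals for the bases under the mock TGF-beta peak. GTF2H4 (chr6:30907957-30908206, plus strand) had a caSmad3 peak of 204 bases and a mock TGF-beta peak of 103 bases. NPLOC4 (chr17:81566603-81566852, minus strand) had 296 and 229 bases, and NAIF1 (chr9:128067321-128067570, minus strand) had 360 and 123 bases. The centre of the NPLOC4 mock TGF-beta peak lay inside the gene, 10018 bases from the nearest protein-coding gene end. The NPLOC4 window therefore belongs to a start site inside the gene and not to one at its outer end.
GTF2H4: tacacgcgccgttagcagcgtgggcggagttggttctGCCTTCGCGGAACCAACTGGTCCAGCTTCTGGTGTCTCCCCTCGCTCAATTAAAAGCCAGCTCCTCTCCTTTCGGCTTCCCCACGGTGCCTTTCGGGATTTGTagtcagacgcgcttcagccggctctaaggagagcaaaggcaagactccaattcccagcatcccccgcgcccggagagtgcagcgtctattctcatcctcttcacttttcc
NPLOC4: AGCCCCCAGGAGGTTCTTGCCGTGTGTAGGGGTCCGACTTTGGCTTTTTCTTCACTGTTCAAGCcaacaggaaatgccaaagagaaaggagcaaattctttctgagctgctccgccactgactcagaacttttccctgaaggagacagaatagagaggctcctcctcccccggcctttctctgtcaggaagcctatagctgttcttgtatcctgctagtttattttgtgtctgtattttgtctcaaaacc
NAIF1: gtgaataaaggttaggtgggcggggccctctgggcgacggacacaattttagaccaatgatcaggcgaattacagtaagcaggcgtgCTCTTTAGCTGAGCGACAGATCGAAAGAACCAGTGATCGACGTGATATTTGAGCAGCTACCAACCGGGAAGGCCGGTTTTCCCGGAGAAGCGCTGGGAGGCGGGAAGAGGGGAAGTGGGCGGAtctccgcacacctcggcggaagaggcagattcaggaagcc
CAGAC was found in GTF2H4 with its first base 107 bases before the start site and in NPLOC4 at 22 bases before it, both outside the capitals. NPLOC4 also held TGANTCA at 132 bases before the start site. NAIF1 held none of the 4 motifs and was the one of these 3 that was also in the polyI:C Smad3 list.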

How the data were processed

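The authors deposited 1 peak list per library, with a chromosome, start, end and name for each peak, and no other values such as a score or read count. Per the submitters' processing notes, MACS2 2.1.0 and Bowtie2 2.2.2.6 were used with the build hg38. Thresholds, input control and duplicate handling were not given in the sources used here. Libraries were made with an Ion fragment kit and 15 cycles of PCR, per the labels' protocols. Depth is unknown.

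Starts were converted to 1-based positions. Overlaps, gaps and widths were computed in Python 3.11.15 with pandas 2.3.3, checked against a slow direct count on simulated peaks. Genes, promoters and the microRNA came from RefSeq tables of GRCh38.p14, which shares the coordinates of hg38; "below" and "above" refer to coordinates. Small RNA peaks lay within 500 bases of such a gene or within 100 kb of an rRNA gene copy of chromosome 21. All 257 genes of 11 lists matched. The members and lists were chosen with earlier results of these data known. Named genes were all list members with a mock TGF-beta peak, TGF-beta list members with a caSmad3 peak, the genes nearest to the 10 widest shared peaks, to the 10 widest caSmad3 peaks not shared and to all 29 mock TGF-beta peaks not shared, and the 3 peaks nearest to each side of the rule; further genes were named after their values were seen. A search of peak sequences was not run, since no genome was used here. Some genes that this rule names are not reported here.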

Additional observations from a re-analysis of the deposited data

How the results depend on the processing

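No paired analysis was possible because each group holds 1 library. Of 77 alternatives over 12 results, 51 moved a value by less than its interval, or a count by at most 1.5 times, and 26 moved more. Asking for 50% of both peaks left 2.48% of caSmad3 and 42.5% of mock TGF-beta peaks shared and 203 mock TGF-beta peaks not shared. The peaks still shared were then wider (median 321.5 bases), with 8% near protein-coding gene ends against 16.7% of those not shared (the other way round from 13.9% and 3.45% with 1 common base), and 81.3% of shared and 61.6% of not shared peaks were in the polyI:C Smad3 list. Centres within 100 bases gave 4.17%, 71.1% and 102 not shared, with a median width of 137 bases and 58.8% in the polyI:C list among those not shared. The rule of 50% of both drops pairs of unequal width by construction, and the cause of the other shifts was not tested. A gap of up to 500 bases gave 6.31% of caSmad3 peaks. The wider 50% of mock TGF-beta peaks gave 2.80% and 98.3%, with 3 not shared, and the wider 50% of caSmad3 peaks gave 9.21% and 83.3%, with 59 not shared. Without small RNA genes 3.95% of caSmad3 peaks were shared, the median width of shared mock TGF-beta peaks was 146.5 bases and 67.8% were in the polyI:C list. Without peaks in an IRF3 list, an alternative chosen after seeing the data, 87.0% of mock TGF-beta peaks were shared, with a median of 149 bases and 63.9% in the polyI:C list. Counting ends of non-coding genes moved the gene-end share of shared peaks to 43.2%. With 1 library a side, no value here carries replicate error.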
